A study of Mus musculus with 8 samples.

Results

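The 10 genes described here are *Lcn2*, *Serpina3n*, *Timp1*, *Cd44*, *Steap4*, *S1pr3*, *Hspb1*, *Tgm1*, *Cp*, and *Emp1*, a set of reactive astrocyte genes outside the filament, MHC, interferon, complement, and chemokine genes. They were chosen by symbol from the 25239 genes of the normalized expression table, by a rule that names no measured value but was written with earlier results of these data known, and all 10 were found. RNA came from the corpus callosum of adult C57BL/6 mice (C57BL/6J in the study's methods), the white matter tract that joins the cerebral hemispheres, in 8 libraries. Bilateral common carotid artery stenosis (BCAS), in which a microcoil around each carotid artery lowers cerebral blood flow, was set against a sham operation in wild-type (WT) mice and in TRPA1-KO mice, which lack the redox-sensitive cation channel TRPA1 (genotype Trpa1 -/-) in every cell. Each label had 1 BCAS library on each of days 7, 10, and 14 and 1 sham library on day 14. No day had a second library, so the spread of a day could not be measured, and intervals given for single libraries cover counting error only.

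Astrocytes that meet injury, ischemia, or inflammation enter a reactive state, in which they enlarge, change their secretions, and alter the matrix and receptors at their surface. Cytokines of the interleukin-6 family, which signal through gp130 and STAT3, and interleukin-1 and TNF, which signal through NF-kB, are known inducers of this state. Several of the genes used as its markers are also made by microglia, macrophages, fibroblasts, and endothelial cells, and in bulk tissue fewer cells of a type and less RNA per cell cannot be told apart.

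By role, 4 of the 10 genes encode secreted proteins (*Lcn2*, *Serpina3n*, *Timp1*, and *Cp*) and 4 encode proteins that span a membrane (*Cd44*, *Steap4*, *S1pr3*, and *Emp1*). The other 2 are neither secreted nor surface proteins, since *Hspb1* encodes a cytosolic small heat shock protein and *Tgm1* an intracellular transglutaminase anchored at the inner face of the membrane. Levels are given as CPM, the reads of a gene scaled to a common library size. The filter on low values (mean level 0.1 CPM or more) was passed by all 10 members and by 18123 genes in all.

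Depth ranged from 7896071 to 12952093 reads per library, so that 3 reads corresponded to 0.235 to 0.378 CPM. The targeted gene, *Trpa1*, went against the genotype labels, with 0 to 1 read in the 4 libraries labelled WT and 3 to 11 reads in the 4 labelled TRPA1-KO (exact permutation test, two-sided, p = 0.0286). Reads summed over the gene do not show whether a deleted part was transcribed, but the libraries are named by their labels throughout, and no direction between labels can be assigned to the genotype with certainty. Summed markers of oligodendrocytes (12932 to 17362 CPM), neurons (5496 to 7175 CPM), and astrocytes (4119 to 5126 CPM) were present in every library, and hemoglobin genes with *Alas2* ranged from 1.11 to 202 CPM. That sum holds both *Hba-a1* and *Hba-a2*, whose reads were equal in 8 of 8 libraries.

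The members that hold sites for inducing transcription factors are shown first, because these genes were high together in 1 library. RefSeq (GRCm38.p6) lists 13 promoters for the 10 members, each covering 250 bases before to 50 bases after the start. Both strands were searched for a STAT site (TTCNNNGAA), an AP-1 site (TGANTCA), an NF-kB site, a heat shock element, and a TATA box (TATAAA). Below are the stretches upstream of the RefSeq start in *Steap4* (chr5:7960222-7960456, plus strand), *Tgm1* (chr14:55713495-55713742, minus strand), *Cp* (chr3:19956804-19957053, plus strand), and *Emp1* (chr6:135362708-135362903, plus strand). Bases that GENCODE M21 places in exons of the same gene are left out, and motif matches are in capitals. The stretches of *Tgm1* and *Emp1* lie inside the GENCODE spans of these genes, which start farther upstream.
Steap4: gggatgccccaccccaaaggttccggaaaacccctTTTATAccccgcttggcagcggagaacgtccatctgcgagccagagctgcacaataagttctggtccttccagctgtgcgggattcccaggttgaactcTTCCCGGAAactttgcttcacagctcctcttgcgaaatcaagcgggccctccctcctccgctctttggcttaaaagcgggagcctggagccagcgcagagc
Tgm1: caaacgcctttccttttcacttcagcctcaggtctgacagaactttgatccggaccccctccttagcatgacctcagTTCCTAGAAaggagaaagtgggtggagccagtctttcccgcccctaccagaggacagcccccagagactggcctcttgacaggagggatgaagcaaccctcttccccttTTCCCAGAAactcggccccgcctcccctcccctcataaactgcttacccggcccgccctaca
Cp: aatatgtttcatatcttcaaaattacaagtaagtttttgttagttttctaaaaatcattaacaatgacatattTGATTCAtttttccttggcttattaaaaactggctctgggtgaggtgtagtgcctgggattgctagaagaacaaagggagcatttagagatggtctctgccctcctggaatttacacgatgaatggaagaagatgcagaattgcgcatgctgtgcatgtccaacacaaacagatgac
Emp1: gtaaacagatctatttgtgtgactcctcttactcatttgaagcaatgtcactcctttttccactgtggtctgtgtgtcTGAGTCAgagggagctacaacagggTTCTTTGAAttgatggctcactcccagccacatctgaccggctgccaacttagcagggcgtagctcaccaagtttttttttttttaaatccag
In *Steap4*, the capitals mark a TATA box on the minus strand and then a STAT site. Both runs in *Tgm1* are STAT sites, beginning at positions -173 and -64 from the start. The single run in *Cp* is an AP-1 site at -177, and in *Emp1* an AP-1 site at -145 is followed by a STAT site at -120. A further AP-1 site of *Emp1* at -25 overlaps a STAT site at -22, and these stand as 1 run of capitals in the 30 bases at chr6:135362897-135362926.
Emp1 overlapping sites: aatccagacTGATTCATAGAAactccttta
A STAT site was present in 3 of the 13 member promoters and in 8.30% of all 32851 promoters of the same length. An AP-1 site was present in 2 of 13 (7.81% of all promoters), and a TATA box in 2 of 13 (13.6%), the second being the other promoter of *Cp*. No member promoter matched the NF-kB site (0.411% of all) or the heat shock element (0.603%). A match describes the letters of the window and does not show binding. The members with the highest day 7 levels relative to sham, described next, include both holders of several sites (*Tgm1*) and genes without any match (*Lcn2* and *Serpina3n*).

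Day 7 after BCAS in the library labelled WT was the point at which the members stood out. All 10 members had their highest level of the 8 libraries there, against 21.9% of all genes tested. The summed level of the 10 members was 337 CPM in that library, 93.3 CPM on day 10, and 41.6 CPM on day 14, and the sham libraries held 47.6 CPM (WT) and 47.7 CPM (TRPA1-KO). The BCAS libraries labelled TRPA1-KO held 45.9, 43.5, and 64.2 CPM on days 7, 10, and 14. *Serpina3n* alone supplied 62.7% of the members' reads on day 7 with the label WT and 25.2% in the sham library of that label.

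**Figure D1:**
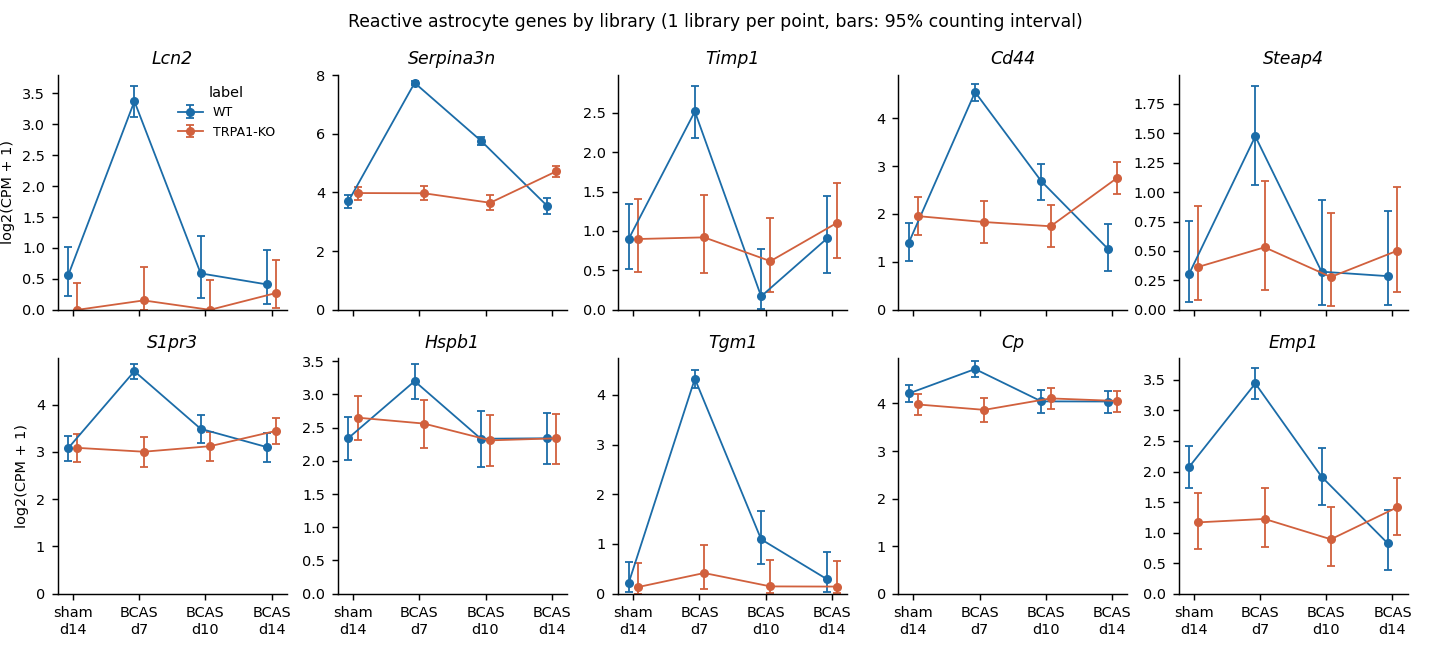
Level of each of the 10 genes as log2(CPM + 1) in the sham library (day 14) and the BCAS libraries of days 7, 10, and 14, with the label WT in blue and TRPA1-KO in orange; each point is 1 library and bars are 95% counting intervals. In all 10 panels the highest point is day 7 with the label WT, and on day 14 *Serpina3n* and *Cd44* are higher with the label TRPA1-KO.

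*Lcn2* (chr2:32384633-32388252, minus strand) encodes lipocalin 2, a secreted carrier that binds iron-loaded siderophores and is released by reactive astrocytes and by neutrophils. With the label WT it measured 0.469 CPM in sham, 9.34 CPM on day 7, 0.504 CPM on day 10, and 0.329 CPM on day 14. With the label TRPA1-KO it was at 0 in sham, 0.111 CPM on day 7, 0 on day 10, and 0.208 CPM on day 14. Only the day 7 library labelled WT held more than 6 reads of it (105 reads), and its level there was 36.1 times that of both sham libraries pooled (95% counting interval 16.1 to 101). By day 10 the level was near sham, with 2.70% of the day 7 excess left on day 10. The count of 0 among 10426966 reads in the sham library labelled TRPA1-KO has a 95% counting interval that reaches 0.354 CPM (3 reads are 0.288 CPM there). The difference between the sham libraries (6 reads and 0 reads) was not detectable at this depth, as the interval of their ratio began at 0.961.

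*Serpina3n* (chr12:104406729-104414329, plus strand) encodes a secreted serine protease inhibitor and was the most abundant member per kilobase of exon. Its levels with the label WT were 11.97 CPM in sham, 212 CPM on day 7, 53.3 CPM on day 10, and 10.6 CPM on day 14. Under the label TRPA1-KO they were 14.8 CPM in sham, 14.7 CPM on day 7, 11.5 CPM on day 10, and 25.4 CPM on day 14. The decline with the label WT was gradual, with a fold over sham of 16.0 (14.2 to 18.1) on day 7 and 4.03 (3.47 to 4.68) on day 10, and 20.2% of the day 7 excess left on day 10. On day 14 the order of the labels was turned, as the level with the label WT was 0.419 times that with TRPA1-KO (0.328 to 0.533). The library labelled TRPA1-KO was then 1.72 times (1.40 to 2.12) its own sham. The neighboring *Serpina3* genes, which share much sequence with it, were listed at 0 or near 0 in most libraries, but *Serpina3k* reached 3.20 CPM on day 7 with the label WT and 0.779 CPM on day 7 with TRPA1-KO. How reads that match several of these copies were counted is not given in the sources used here, so part of either value is uncertain. The hemoglobin copies *Hba-a1* and *Hba-a2* had equal reads in 8 of 8 libraries. Whether a read was counted for more than 1 *Serpina3* gene was not tested.

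*Timp1* (chrX:20870166-20874735, plus strand) encodes a secreted inhibitor of matrix metalloproteinases. The libraries labelled WT held 0.861 CPM in sham, 4.71 CPM on day 7, 0.126 CPM on day 10, and 0.878 CPM on day 14. Those labelled TRPA1-KO held 0.863, 0.891, 0.534, and 1.14 CPM in the same order. Day 7 with the label WT was 5.47 times sham (3.22 to 9.66), and the other 7 libraries lay at 11 reads or fewer. The low value of day 10 with the label WT rests on 1 read (0.146 times sham, 0.0035 to 0.914). *Timp1* lies inside the neuronal gene *Syn1* on the opposite strand, with 0 shared exon bases, and *Syn1* averaged 572 CPM. The strand setting of the counting is not given in the sources used here.

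*Cp* (chr3:19957054-20009145, plus strand) encodes ceruloplasmin, a copper-containing ferroxidase that works in iron export and exists in a secreted and a membrane-linked form in astrocytes. It measured 17.5 CPM in sham, 25.4 CPM on day 7, 15.5 CPM on day 10, and 15.5 CPM on day 14 with the label WT. With the label TRPA1-KO it measured 14.8, 13.6, 16.2, and 15.6 CPM. This was the smallest day 7 difference of the set, 1.56 times sham (1.33 to 1.83), and outside that library the values spanned 13.6 to 17.5 CPM, the sham library labelled WT being the highest of these. Of its exon bases, 1.13% overlap *Hps3* on the opposite strand.

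Among the surface proteins, *Cd44* (chr2:102811141-102901665, minus strand), the main receptor for hyaluronan, had the largest day 7 fold, although its interval overlapped that of *Steap4*. With the label WT it measured 1.64 CPM in sham, 22.3 CPM on day 7, 5.42 CPM on day 10, and 1.43 CPM on day 14. With the label TRPA1-KO it measured 2.88, 2.56, 2.35, and 5.72 CPM. Day 7 was 10.2 times sham (7.49 to 14.0) and day 10 was 2.47 times sham (1.60 to 3.77), with 16.0% of the excess left. As for *Serpina3n*, day 14 was higher with the label TRPA1-KO, the WT library being at 0.249 times its level (0.125 to 0.462). That TRPA1-KO library was 1.99 times (1.25 to 3.22) the sham of its label and 2.60 times both sham libraries pooled (1.75 to 3.89).

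*S1pr3* (chr13:51408639-51422797, plus strand) encodes a receptor for sphingosine 1-phosphate. Its levels were 7.43 CPM in sham, 25.1 CPM on day 7, 10.2 CPM on day 10, and 7.57 CPM on day 14 with the label WT, and 7.48, 7.01, 7.69, and 9.88 CPM under the label TRPA1-KO. The sham libraries and day 14 with the label WT differed by less than their counting intervals. Day 7 was 3.36 times sham (2.77 to 4.09) and day 10 was 1.37 times (1.04 to 1.79). Day 14 with the label TRPA1-KO was 1.33 times the pooled sham (1.02 to 1.71), but against the sham of its own label the interval included 1 (0.969 to 1.81).

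*Emp1* (chr6:135362545-135383173, plus strand) encodes a tetraspan epithelial membrane protein, and was the member whose sham libraries differed. It measured 3.21 CPM in sham, 9.87 CPM on day 7, 2.77 CPM on day 10, and 0.768 CPM on day 14 with the label WT, and 1.25, 1.34, 0.854, and 1.66 CPM under the label TRPA1-KO. The sham library labelled WT was 2.57 times that labelled TRPA1-KO (1.35 to 5.23), so that folds over sham depend on the library chosen: day 7 with the label WT was 3.08 times its own sham (2.13 to 4.52) and 7.92 times the other (4.45 to 15.3). With the label WT the level of day 14 was 0.239 times the sham of that label and day (0.0906 to 0.539). It rested on 7 reads, beside 41 reads in that sham library and 13 in the sham library labelled TRPA1-KO. On day 10 with the label TRPA1-KO, 8 reads stood beside the same 13.

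*Steap4* (chr5:7960457-7982213, plus strand) encodes a metalloreductase that reduces iron and copper at membranes. It was the scarcest member on day 7 with the label WT, with 20 reads (1.78 CPM) and 2 to 4 reads in each of the other 7 libraries. The values with the label WT were 0.235 CPM in sham, 0.252 CPM on day 10, and 0.219 CPM on day 14, and those with the label TRPA1-KO were 0.288, 0.445, 0.214, and 0.416 CPM. Day 7 was 6.88 times sham (2.66 to 20.9). No other difference between libraries was detectable at this depth.

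The 2 intracellular members differed widely in their day 7 fold. *Tgm1* (chr14:55700009-55713926, minus strand), known for cross-linking the cornified envelope of the epidermis, was near the floor in sham and had the largest day 7 fold of all members, with an interval that overlapped that of *Lcn2*. It measured 0.156 CPM in sham, 19.0 CPM on day 7, 1.13 CPM on day 10, and 0.219 CPM on day 14 with the label WT, and 0.0959, 0.334, 0.107, and 0.104 CPM with the label TRPA1-KO. These are 214 reads on day 7 against 3 reads in both sham libraries together, a ratio of 147 (49.7 to 720). The 9 reads of day 10 were 8.77 times sham (2.19 to 50.4), with 5.32% of the day 7 excess left. The antisense gene *Gm49067* overlaps 5.76% of its exon bases. By contrast *Hspb1* (chr5:135887919-135889563, plus strand), a chaperone that limits protein aggregation, measured 4.07 CPM in sham, 8.18 CPM on day 7, 4.03 CPM on day 10, and 4.06 CPM on day 14 with the label WT, and 5.27, 4.90, 3.95, and 4.06 CPM with the label TRPA1-KO. Its day 7 level was 1.77 times sham (1.33 to 2.37), and the other 7 libraries overlapped within their intervals.

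Per kilobase of exon, the members kept no fixed order between sham and day 7. *Serpina3n* led in both sham libraries (5.80 and 7.16 CPM per kilobase) and on day 7 with the label WT (103 CPM per kilobase), followed each time by *Hspb1* (3.95, 5.12, and 7.94 CPM per kilobase). *Tgm1* went from the last place in the sham library labelled WT (0.0495 CPM per kilobase) to the third on day 7 (6.02 CPM per kilobase). In that sham library it rested on 2 reads and its interval overlapped that of *Steap4* above it. *Lcn2* was last in the sham library labelled TRPA1-KO, at 0 reads. In both sham libraries the intervals of *Serpina3n* and *Hspb1* overlapped. On day 7, neighbors from *Hspb1* down to *Cp* had overlapping intervals, and *Serpina3n* above them and *Emp1* and *Steap4* below them did not overlap the next gene in the order.

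Counting intervals summarized these time courses. On day 7 with the label WT the interval of the fold over sham lay above 1 for 10 of 10 members, beside 18.9% of all genes tested, and the log2 difference from the sham mean exceeded 1 for 8 of 10, beside 3.63%. On day 10 it lay above 1 for 4 of 10 (*Serpina3n*, *Cd44*, *S1pr3*, and *Tgm1*) beside 12.2%, and below 1 for *Timp1* (12.4% of all genes). On day 14 it lay above 1 for 0 of 10 (10.9%) and below 1 for *Emp1* (10.6%). With the label TRPA1-KO the interval lay above 1 for 0 of 10 on day 7 (12.7%) and 0 of 10 on day 10 (8.99%), where *Emp1* was below 1 (10.1%). It lay above 1 for 3 of 10 on day 14 (8.6%), namely *Serpina3n*, *Cd44*, and *S1pr3*. Most of the pooled sham reads of *Emp1* (41 of 54) came from the library labelled WT. The median log2 difference from sham was 1.72, 0.30, and -0.051 on days 7, 10, and 14 with the label WT and 0.043, -0.12, and 0.081 with the label TRPA1-KO.

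**Figure D2:**
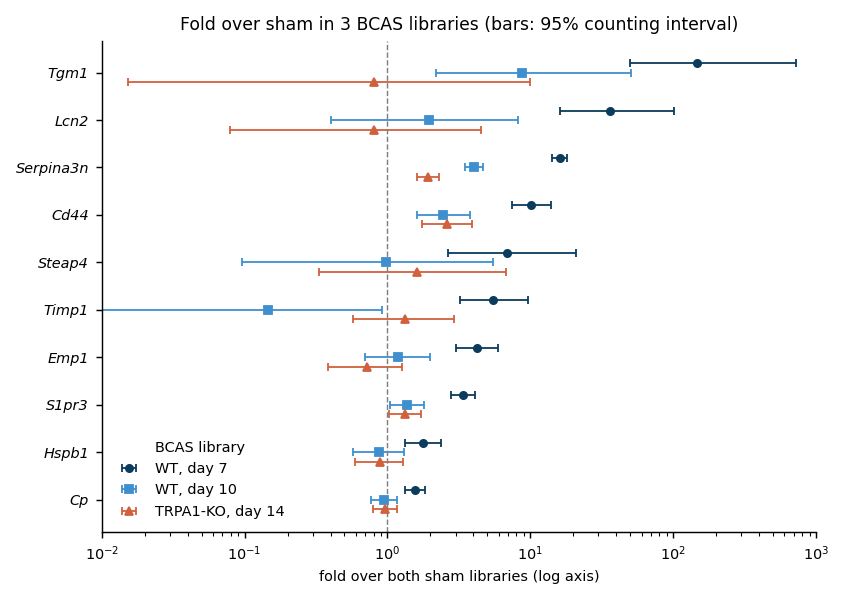
Fold over both sham libraries pooled, on a log axis, for each gene on days 7 and 10 with the label WT and on day 14 with the label TRPA1-KO after BCAS; bars are 95% counting intervals, and that of *Timp1* on day 10 runs beyond the left edge. All 10 day 7 intervals lie above 1, from 1.56 for *Cp* to 147 for *Tgm1*, those of *Serpina3n* and *Cd44* on day 10 stand at 4.03 and 2.47, and day 14 with the label TRPA1-KO reaches 2.60 at most (*Cd44*). The libraries share the same sham reads.

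Libraries of the same day were also set against each other. On day 7 the level with the label WT was above that with TRPA1-KO for 10 of 10 members (18.2% of all genes tested had such an interval), from 1.67 times for *Hspb1* (1.15 to 2.45) to 57.0 times for *Tgm1* (19.2 to 279) and 83.9 times for *Lcn2* (14.7 to 3344), whose lower level was 1 read. On day 10 it was above for 4 of 10 (11.6%), which were *Serpina3n* (4.62 times), *Cd44* (2.31 times), *Tgm1* (10.6 times), and *Emp1* (3.25 times). On day 14 it was above for 0 of 10 (11.7%) and below for *Serpina3n* and *Cd44* (10.7%). Between the sham libraries only *Emp1* differed, being higher with the label WT. Of all genes, 10.6% had such an interval above 1 and 9.76% had one below 1.

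The study's comparison of BCAS-operated WT with TRPA1-KO mice averaged the 3 days, and the tests here set that difference against the spread over the days. Mean levels were higher with the label WT for 10 of 10 members, beside 50.3% of all genes tested, with a median log2 fold change of 0.65 (all genes 0.0010). *Serpina3n* averaged 91.9 ± 106 CPM (SD, n = 3) with the label WT and 17.2 ± 7.26 CPM with TRPA1-KO, and *Cd44* averaged 9.72 ± 11.1 and 3.54 ± 1.89 CPM. For both, the SD over the days with the label WT exceeded the difference of the means. With limma, 0 of 10 members had a p under 0.05 (4.2% of all genes tested), and 0 had an adjusted p under 0.05 (0.0166%), the adjusted p being 0.98 for each. On the recovered reads, edgeR gave 4 members with a p under 0.05 (*Lcn2*, *Serpina3n*, *Tgm1*, and *Emp1*), beside 5.23% of all genes, and a median log2 fold change of 1.34. DESeq2 gave 5 with *S1pr3* added, beside 3.28% of all genes. None of them remained after adjustment with either tool. The smallest limma p-values were 0.0648 for *Lcn2* (log2 fold change 1.31 ± 0.63 SE), 0.0654 for *Tgm1* (1.67 ± 0.80), and 0.0793 for *Serpina3n* (1.57 ± 0.80). *Lcn2* was also the 1 member whose labels did not overlap, at 0.329 to 9.34 CPM with WT against 0 to 0.208 CPM. Of all genes, 4.48% were higher with WT without overlap and 4.73% were lower. For *Lcn2* the exact permutation p of 0.1 is the smallest that 3 against 3 libraries allow. The exact permutation p of the other 9 members lay between 0.2 for *Tgm1* and 0.9 for *Timp1*. Without the day 7 library labelled WT, the median log2 fold change was 0.069 and 6 of 10 members were higher. Without the day 14 library of that label, it was 1.20 and 6 of 10 members had a limma p under 0.05, none of them after adjustment. The share of all genes tested with such a p was then 10.2%.

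BCAS libraries of each label were compared with both sham libraries as 1 group. For the label WT the log2 fold change was above 0 for 10 of 10 members (49.6% of all genes) with a median of 0.56. With limma, 0 of 10 had a p under 0.05 (5.45% of all genes). On the recovered reads edgeR gave 5 (6.78% of all genes) and DESeq2 gave 3 (4.54%), again none after adjustment. The lowest limma p was 0.0510 for *Serpina3n* (1.84 ± 0.84 SE, adjusted p = 0.91). *S1pr3* and *Tgm1* did not overlap sham, and both were higher. Of all genes, 8.89% were higher without overlap and 11% were lower. For the label TRPA1-KO the median was 0.023, with 5 members higher (49.3% of all genes) and 5 lower, and 0 of 10 had a limma p under 0.05 (2.74% of all genes). The largest differences were -0.44 ± 0.58 for *Emp1* and 0.43 ± 0.70 for *Cd44* (limma adjusted p = 1.0 for both). Both comparisons use the same sham libraries. The exact permutation test of 3 against 2 libraries cannot go below 0.1 and gave 0.3 or more for each member in both comparisons. In the limma test of whether the change from the sham of the same label differed between labels, the adjusted p was 1.0 for all 10 members. Without the day 14 library labelled WT, 6 of 10 members had a limma p under 0.05 against sham, beside 11.1% of all genes tested. *Serpina3n* then had a limma adjusted p of 0.046, and 45 of 18123 genes had one under 0.05.

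**Figure D3:**
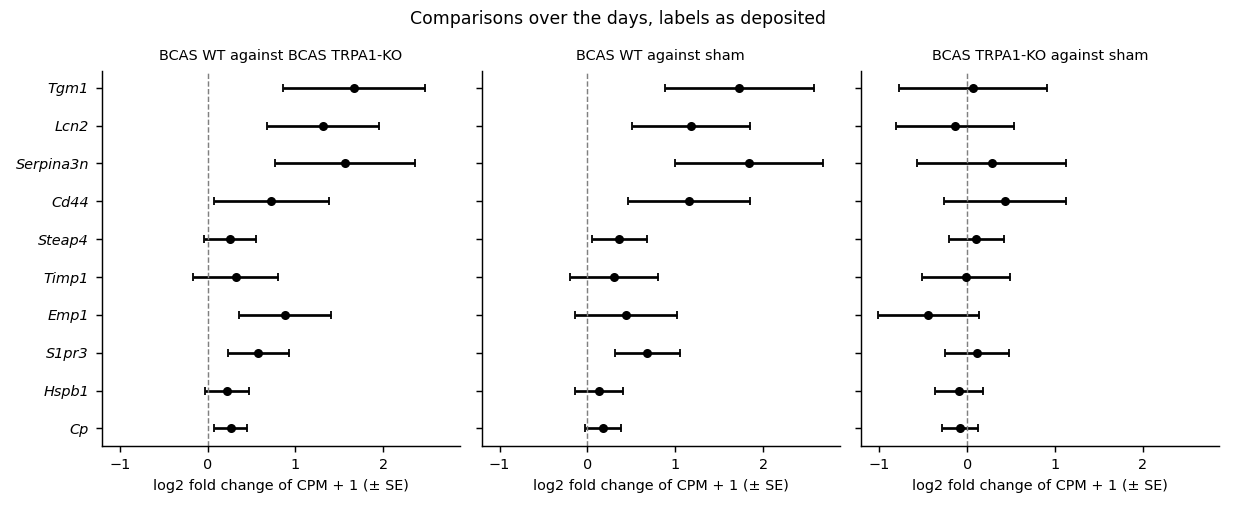
Log2 fold change of CPM + 1 with its standard error (limma) for each gene in the 3 comparisons over the days, with 3 BCAS libraries per label and 2 sham libraries. All 10 points lie above 0 in the first panel (0.22 to 1.67) and in the second (0.13 to 1.84), and they lie on both sides of 0 in the third (-0.44 to 0.43).

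The other reactive astrocyte genes in general use, 27 genes of which 26 were tested, were also high on day 7. Their median log2 difference from sham with the label WT was 1.32, 0.53, and -0.19 on days 7, 10, and 14, and -0.20, -0.11, and 0.18 with the label TRPA1-KO. On day 7 with the label WT, 26 of 26 lay above both sham libraries (38.8% of all genes tested) and 21 of 26 had their highest level of the 8 libraries. *Gfap*, the intermediate filament of astrocytes and named here after its values were seen, measured 1415, 1060, and 157 CPM on days 7, 10, and 14 beside 200.4 CPM in sham with the label WT. With the label TRPA1-KO it measured 167, 169, and 427 CPM beside 234 CPM in sham, so that, as for *Serpina3n* and *Cd44*, the level of day 14 was higher with that label. Between BCAS labels 24 of 26 were higher with WT (median 0.64), and 3 had a limma p under 0.05 (2.4% of all genes in that direction), which were *H2-D1* (0.96 ± 0.37 SE), *Cxcl10* (1.25 ± 0.53), and *Osmr* (0.95 ± 0.41), the receptor subunit for oncostatin M, with a limma adjusted p of 0.98 for each.

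Ligands, targets, and other partners of the members were listed as 33 genes, of which 31 were tested. Between BCAS labels 25 were higher with WT, 3 had a limma p under 0.05 in that direction (2.4% of all genes) and 1 in the other (1.8%), and 0 passed adjustment. *Tfrc*, the transferrin receptor, averaged 154 ± 10.3 CPM with WT and 134 CPM with TRPA1-KO, *Vcan*, a hyaluronan-binding proteoglycan, 38.6 ± 0.892 and 31.6 CPM, and *Has2*, a hyaluronan synthase, 1.38 ± 0.660 and 0.573 CPM (SD, n = 3). The 1 gene in the other direction was *S1pr5*, the sphingosine 1-phosphate receptor of oligodendrocytes, which was lower with WT (27.5 and 33.2 CPM, -0.27 ± 0.12 SE). On day 7 with the label WT, 2 partners stood far above the rest and were named after their values were seen. *Spp1* (osteopontin), a ligand of CD44, was at 436 CPM there and between 3.64 and 7.01 CPM in the other 7 libraries, and its limma p between BCAS labels was 0.17. *Hmox1* (heme oxygenase 1) was at 35.4 CPM there and at most 5.37 CPM elsewhere.

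Relatives of the members were listed as 33 genes, of which 24 were tested. On day 7 with the label WT, 17 of 24 lay above both sham libraries (38.8% of all genes), 12 of 24 had their highest level of the 8 libraries (21.9%), and the median log2 difference from sham was 0.53. Between BCAS labels *Hspb6* (0.72 ± 0.27 SE) and *Timp2* (0.26 ± 0.11) were higher with WT and *Hspb3* was lower (-0.44 ± 0.19), each with a limma p under 0.05 (2.4% of all genes higher and 1.8% lower) and an adjusted p of 0.98. On day 7 with the label WT, *Emp3* was at 5.78 CPM beside 1.17 CPM in sham, whereas *Emp2* was at 15.8 CPM beside 16.9 CPM. Of the other *Timp* genes, *Timp2* (310 CPM beside 245 CPM in sham) and *Timp4* (30.1 and 18.5 CPM) were above the sham of that label and *Timp3* (95.2 and 100.4 CPM) was below it. Among the small heat shock protein genes *Hspb6* (11.6 and 3.52 CPM) and *Hspb8* (21.3 and 9.78 CPM) were above it and *Cryab* (103 and 130.4 CPM) was below it. Apart from the genes with a p under 0.05, these relatives were picked after their values were seen.

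Among 23 genes of the inducing pathways, 21 were tested and 2 had a limma p under 0.05 between BCAS labels, *Cntf* (ciliary neurotrophic factor, 0.65 ± 0.23 SE) and *Tnfrsf1a* (TNF receptor 1, 0.76 ± 0.30), both higher with WT (2.4% of all genes) and neither overlapping the other label (4.48% of all genes; limma adjusted p = 0.98). *Stat3* measured 93.4, 58.1, and 55.4 CPM on days 7, 10, and 14 with the label WT and 49.98 to 56.6 CPM on the same days with TRPA1-KO. Also seen before they were named were *Socs3* and the cytokines that follow. *Socs3*, a STAT3 target that feeds back on the pathway, was at 10.49 CPM on day 7 with WT and between 1.87 and 3.78 CPM elsewhere. Among the cytokines, *Lif* (leukemia inhibitory factor) was at 1.33 CPM there (15 reads) and between 0.104 and 0.557 CPM elsewhere. Its limma p between BCAS labels was 0.29. *Il6* had 5 reads there and 0 in the other 7 libraries. By contrast, *Il1b* (0.356 CPM there, 0.626 and 0.288 CPM in sham) and *Il11* (1.25 CPM there, 0.939 and 2.01 CPM in sham) lay between the sham libraries labelled WT and TRPA1-KO. *Osm* and *Tnf* stayed at 0.445 CPM or less in all 8 libraries.

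Outside these lists, the genes whose course over the 6 BCAS libraries lay nearest to the members' median, among 15143 candidates averaging 1 CPM or more, were *Gusb*, a lysosomal glucuronidase (root mean square difference 0.093 on the log2 scale), *Hk3*, a hexokinase of myeloid cells (0.13), *Fn1*, fibronectin (0.15), *Fblim1*, a filamin-binding protein (0.15), and *Rtp4*, an interferon-induced protein (0.16). *Gusb* measured 48.0 CPM on day 7 with the label WT and 11.4 to 16.0 CPM in the other 7 libraries. This is a ranking of likeness over 6 libraries that share the same day 7 library, with no test.

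Markers of several other cell types moved with the members on day 7 with the label WT, and those of neurons did not. Summed microglial markers were 2.73 times the sham mean there, with 8 of 8 genes above both sham libraries (38.8% of all genes), and 1.64, 0.968, 0.933, 0.970, and 1.31 times in the other BCAS libraries (WT days 10 and 14, then TRPA1-KO days 7, 10, and 14). The monocyte and macrophage list was 5.63 times sham on day 7 with the label WT (5 of 7 genes above both sham libraries, none at 0) and between 0.673 and 1.49 times elsewhere. *Lyz2*, a lysozyme gene that microglia also express, supplied 667 of those 785 day 7 reads, and without it the list was 1.35 times sham. Among the other genes *Cd163* was below sham with the label WT (1.33 and 3.44 CPM), and *Pf4* lay between the sham libraries. *Ccr2* (1.78 and 0.0782 CPM), *Ms4a7* (1.07 and 0.0782 CPM), *Ly6c2* (3.38 and 2.11 CPM), and *Mrc1* (2.58 and 2.50 CPM) were above that sham library. *Ccr2* rested on 20 reads and *Ms4a7* on 12, beside 1 read of each in that sham library. The fibroblast list was 2.53 times sham on day 7 (6 of 6 genes) and 1.91 times on day 10 with the label WT. Endothelial markers were 1.15 times sham on day 7 with that label, with 6 of 8 genes above both sham libraries. They were 0.923 to 1.07 times in the other BCAS libraries. The choroid plexus and ependyma list was 1.27 times sham on that day (5 of 7 genes), and its sham libraries themselves stood at 0.790 and 1.21 times their mean. Neutrophil markers summed to 1.51 CPM on day 7 with the label WT and to 0.111 to 0.630 CPM elsewhere. On that day 4 of 8 genes were above both sham libraries, among them *S100a8* and *S100a9* (5 reads each) and *Cxcr2* (4 reads). *Ngp*, *Ltf*, and *Elane* were at 0 there, and *Elane* was at 0 in all 8 libraries. The astrocyte list, of genes that mark astrocytes in general, was 1.06 times sham on day 7 with the label WT and 0.937 to 1.17 times in the other BCAS libraries. Of its 8 genes, 7 lay above both sham libraries on day 7 with the label WT (*Aldh1l1* at 94.5 CPM beside 51.2 and 61.5 CPM), and *Slc1a2*, which supplied 57.6% of the reads, lay below both. Without *Slc1a2* the list was 1.32 times sham there and 0.941 to 1.09 times in the other BCAS libraries. Neuron markers were 0.816 times sham on day 7 with the label WT, with 1 of 8 genes above both sham libraries, and 0.933 to 1.07 times in the other BCAS libraries. Oligodendrocyte markers were 0.807 times sham in that day 7 library and 0.779 to 0.881 times in the other BCAS libraries. The part of these cell types in the members' day 7 levels was not tested. On day 14 with the label TRPA1-KO, where *Serpina3n* and *Cd44* were above sham, microglial markers were 1.31 times, macrophage markers 1.37 times, and fibroblast markers 1.38 times sham.

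**Figure D4:**
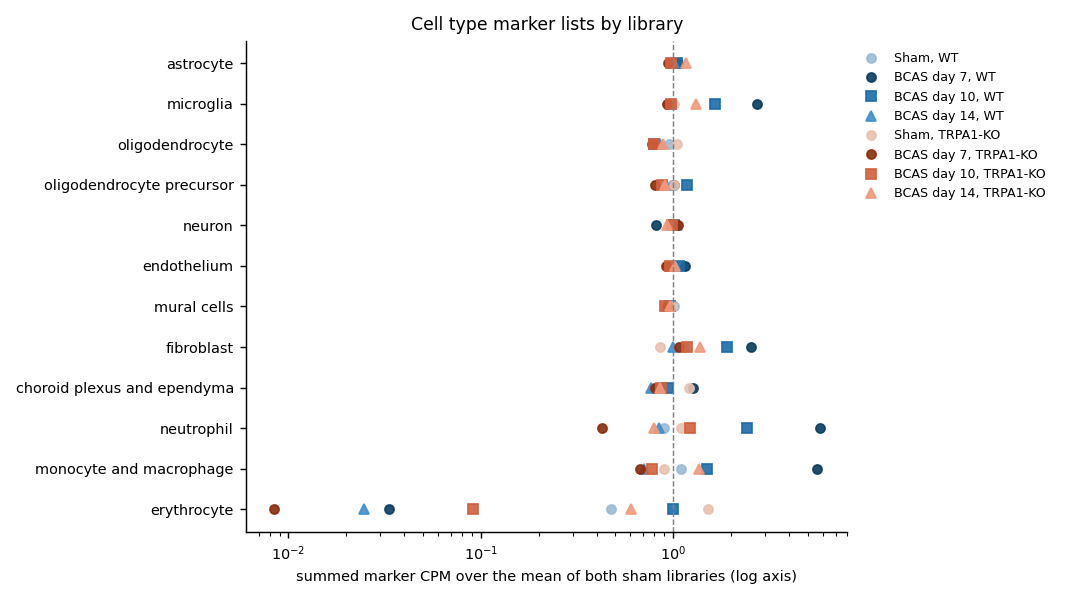
Summed CPM of each cell type marker list relative to the mean of both sham libraries, on a log axis, with 1 symbol per library. The day 7 library labelled WT stands apart for microglia (2.73), monocytes and macrophages (5.63, mostly *Lyz2*), neutrophils (5.79, from 17 reads), and fibroblasts (2.53), the astrocyte list, whose sum is mostly *Slc1a2*, lies between 0.937 and 1.17 in all BCAS libraries although 7 of its 8 genes were above both sham libraries in that library, and the erythrocyte list spreads most widely (0.0084 to 1.52).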

How the data were processed

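Corpus callosum RNA was sequenced in 8 libraries. Per the study's methods and processing notes, the authors selected polyadenylated RNA, mapped reads to GRCm38 (mm10) with HISAT2, counted reads per gene with featureCounts of Subread, and normalized with edgeR. The deposited signal was CPM per effective library size, not logged. Every value (100%) was an integer multiple of what 1 read is worth (tolerance 0.01), which returned whole reads. Annotation, strand setting, and gene filter are not given in the sources used here.

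Log2(CPM + 1) was tested with limma 3.58.1 in R 4.3.3 (trend, Benjamini-Hochberg over 18123 genes), two-sided, with days as replicates of a label. P-values measure only the spread between these libraries. Single members had two-sided exact permutation tests. Libraries were compared by 95% Clopper-Pearson and exact conditional intervals (scipy 1.17.1), which cover counting error only, since PCR copies are not independent molecules. Alternatives were another pseudocount, other filters, plain library sizes, edgeR 4.0.16 and DESeq2 1.42.0 on recovered reads, the day as block, all 8 libraries in 1 fit, the sham of 1 label, and each library left out. The limma, edgeR, and DESeq2 fits were tested on simulated counts, for BCAS WT against BCAS TRPA1-KO and against sham. Named by rule were all members, the 3 smallest p-values between BCAS labels in each other list, and the 5 genes with the most similar course, and any other gene named (among them *Gfap*, *S1pr5*, *Serpina3k*, and the marker genes) was chosen after its values were seen. Members, lists, and tests were chosen with earlier results of these data known. Gene positions and exon lengths come from GENCODE M21.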

Additional observations from a re-analysis of the deposited data

Results flagged for a closer look

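*Lcn2* was picked out because its BCAS libraries moved in opposite directions from the sham mean under the 2 labels. All 3 libraries labelled WT lay above it, the lowest by 0.13 on the log2(CPM + 1) scale, and all 3 labelled TRPA1-KO lay below it, the highest by -0.0049. These margins correspond to 3 and 2 reads, and the sham mean itself lies between 6 reads in the library labelled WT and 0 reads in that labelled TRPA1-KO. The limma test of the difference between the labels' changes from their own sham gave 0.76 ± 1.27 SE with an adjusted p of 1.0. Samples far from their group could not be screened, since no group held more than 3 libraries.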

How the results depend on the processing

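The number of members with a p under 0.05 depended on the test, and none passed adjustment except *Serpina3n* in the single case below. Between BCAS labels the count was 0 with limma (4.2% of all genes tested) and became 2 with a pseudocount of 0.1 (*Lcn2* and *Tgm1*, 4.38%). It was 4 with edgeR (5.23%) and 5 with DESeq2 (3.28%). With all 8 libraries in 1 fit it was 1 (*Tgm1*, 5.40%), and with the day as a replicate block it was 2 (*Lcn2* and *Tgm1*, 3.49%). The block is given only here because same-day libraries did not deviate together (correlations -0.10, 0.0051, and -0.26). Leaving out 1 library at a time gave 0 to 6 members, beside 1.79% to 10.2% of all genes tested. Both highest values came without day 14 labelled WT. The medians ran from 0.069 to 1.20. Against sham with the label WT the count was 0 with limma (5.45% of all genes) and 2 with the pseudocount of 0.1 (5.58%). It was 5 with edgeR (6.78%) and 3 with DESeq2 (4.54%). Leaving out 1 BCAS library gave 0 to 6 members, the 6 without day 14 labelled WT (11.1% of all genes). The medians ran from 0.092 (without day 7 labelled WT) to 1.04 (without day 14 labelled WT, where *Serpina3n* had a limma adjusted p of 0.046). Median log2 fold changes were larger on the count scale, which has no pseudocount of 1, at 1.34 (edgeR) and 1.31 (DESeq2) between BCAS labels and 1.39 and 1.37 against sham, and the day 7 median with the label WT was 2.35 with the pseudocount of 0.1. The cause of the other differences was not tested. All 10 day 7 intervals also lay above 1 against either sham library alone, a comparison added after seeing the data.

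Leaving out 1 library at a time turned the direction of single genes, whose log2 fold changes then ranged as follows. Between BCAS labels the range was -0.34 to 0.83 for *Timp1*, -0.13 to 1.505 for *Cd44*, -0.13 to 0.46 for *Steap4*, and -0.067 to 0.37 for *Hspb1*, each lowest without day 7 labelled WT. Against sham with the label WT it was -0.36 to 0.81 for *Timp1*, -0.029 to 0.56 for *Steap4*, -0.16 to 0.28 for *Hspb1*, -0.052 to 0.29 for *Cp*, and -0.25 to 1.06 for *Emp1*, again lowest without day 7, and *Hspb1* was also -0.026 without the sham labelled WT. With only the sham of its own label *Emp1* was -0.013. With the label TRPA1-KO against sham it was -0.41 to 0.14 for *Lcn2*, -0.20 to 0.030 for *Cp*, and -0.90 to 0.0084 for *Emp1*, whose highest values came without the sham labelled WT and equally with only the sham of their own label. It was -0.25 to 0.061 for *Hspb1* (highest without the sham labelled TRPA1-KO), -0.028 to 0.51 for *Serpina3n* and -0.019 to 0.20 for *S1pr3* (lowest without day 14), -0.13 to 0.11 for *Timp1* (highest without day 10), and -0.026 to 0.11 for *Tgm1* (lowest without day 7). The filter at a mean of 1 CPM removed *Steap4*. A floor of 3 reads limits statements on *Lcn2*, *Steap4*, *Timp1*, and *Tgm1* outside day 7.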
